A study of Rattus with 52 samples.

Results

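Gene expression in the left ventricle (LV) was compared between 7 5/6Nx PD rats and 6 Sham PD rats, which are 13 of the 52 RNA-seq libraries of a rat study of heart and kidney. All were male Sprague Dawley rats, 10 weeks old at surgery. In 5/6Nx rats the right kidney and the larger part of the left were cut away, and Sham rats had the operation without loss of kidney tissue. Both groups then carried an indwelling abdominal catheter and were given peritoneal dialysis (PD), with 3 exchanges a day for 8 days, and the LV was taken 7 weeks after the first surgery. The comparison therefore asked how the LV transcriptome of a rat with little kidney left differed from that of a rat with intact kidneys when both were dialysed. The same surgery contrast in 7 5/6Nx Control and 6 Sham Control rats, which had the catheter but no dialysate, was used as the background to it. Each library came from a different rat.

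Loss of kidney mass burdens the heart through pressure, volume, retained solutes and altered hormones, and the heart of chronic kidney disease is known for myocyte hypertrophy with interstitial fibrosis. Stretched ventricular myocytes turn on the natriuretic peptide genes, and their contraction depends on calcium released from the sarcoplasmic reticulum and fuelled largely by fatty acids. Between the myocytes lie fibroblasts, which make the collagen matrix, resident macrophages, endothelium and pericytes, and all of them contribute RNA to a piece of ventricle.

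Values below are normalized reads, that is, reads of a gene divided by the size factor of its library, and a fold is the ratio of group means on that scale. A log2 difference is taken on the variance-stabilised log2 scale of the deposited values, which understates the change of genes with few reads, and is given ± its standard error. Genes were called by limma at a Benjamini-Hochberg adjusted p under 0.05. Levels are compared between groups for a gene and not between genes, apart from the Myh7 to Myh6 ratio and shares of marker sums. Normalized reads carry no correction for gene length.

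The LV libraries held 31035738.0 to 43742590.0 gene-assigned reads in 5/6Nx PD rats and 31072619.0 to 102005955.0 in Sham PD rats. Sarcomere genes were abundant in every library, and 1 of the 5 atrial markers stayed under 10 normalized reads in all 13. Over the 2000 most variable genes, the first principal component held 57.8% of the variance. It placed 5 Sham PD libraries between -30.4 and -14.6 and 6 5/6Nx PD libraries between 13.8 and 32.7. Sham PD replicate 2 lay apart at 4.5 and 5/6Nx PD replicate 7 at -4.0. Each of them stood nearer to the closest library of the other group than to the closest of its own. Folds of named genes that moved by over 1.5 times without either library are given both ways.

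Over 15800 genes tested, 5969 (37.8%) passed the threshold, 2872 of them (18.2%) higher in 5/6Nx PD and 3097 (19.6%) lower. The changes were broad and mostly modest, with a median size of 0.479 log2 units among called genes and 301 called genes beyond 1 log2 unit. In 637 genes (4.03%) every 5/6Nx PD library lay above every Sham PD library, and in 949 (6.01%) every one lay below. The called count rose to 6642 when Sham PD replicate 2 was dropped, to 6553 when 5/6Nx PD replicate 7 was, and to 7231 with neither. These 2 libraries were singled out by their place on the first component, and leaving out libraries that lie toward the other group favours a higher count. Leaving out any other library gave 4603 to 6142. The gene lists that follow are set beside these shares, 18.2% for members that rose, 19.6% for members that fell and 37.8% for both. Counts of members without overlap stand beside 4.03% above and 6.01% below.

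Summed marker levels moved with these groups. The 12 fibroblast markers together held 225700 normalized reads in the lowest Sham PD library, 260300 at the median and 312700 in the highest, against 56510, 98950 and 159100 in 5/6Nx PD. Gsn, described below, made up the largest part of this sum. The 17 macrophage markers held 45280, 50360 and 65120 in Sham PD and 13920, 25100 and 33640 in 5/6Nx PD. Neither pair of ranges overlapped. The 20 sarcomere genes went the other way without overlap, from 3638000, 4680000 and 4993000 to 5199000, 6234000 and 7428000. Endothelial markers overlapped, at 196200, 263800 and 315000 in Sham PD and 123600, 178200 and 266400 in 5/6Nx PD. In bulk tissue, fewer cells of a type and less RNA per cell cannot be told apart, and the part of these markers in the changes of other genes was not tested.

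**Figure D1:**
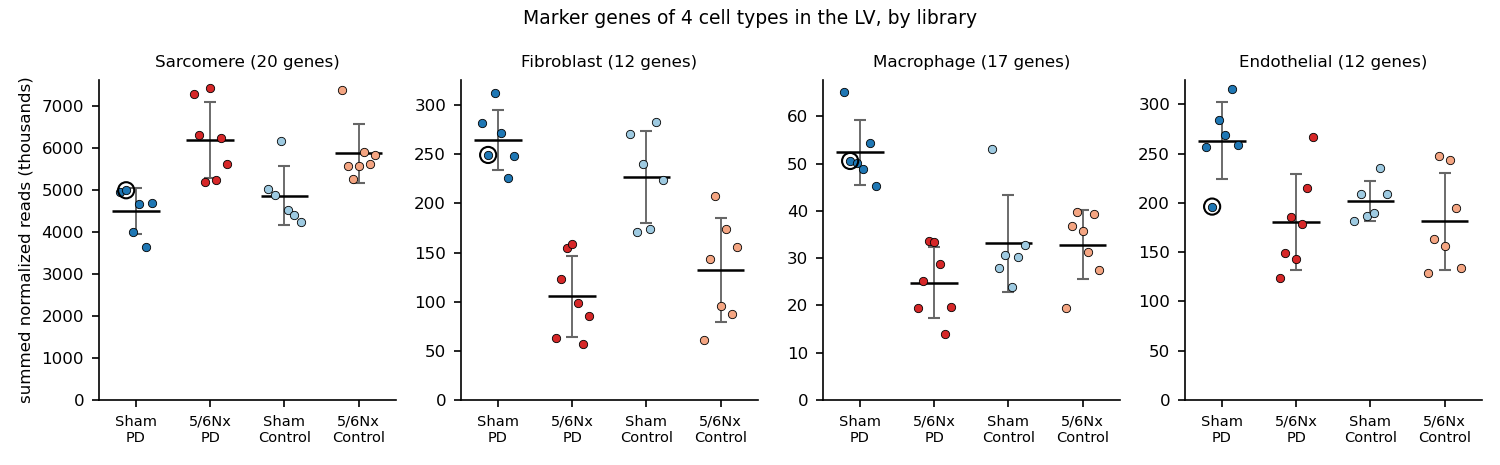
Summed normalized reads (linear axis in units of 1000 reads) of sarcomere, fibroblast, macrophage and endothelial markers in each LV library of the 4 groups, with points for libraries, a line for the mean, a bar for the SD and a ring around Sham PD replicate 2. Fibroblast and macrophage sums of the 7 5/6Nx PD libraries all sit below those of the 6 Sham PD libraries, while the sarcomere sums all sit above.

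Ptger4, a prostaglandin E2 receptor, had the smallest p in the comparison. It lay at 1002, 1098 and 1606 normalized reads (lowest, median and highest) in Sham PD and at 257, 330 and 486 in 5/6Nx PD, so that the groups did not overlap. Its mean was 3.32-fold lower, a log2 difference of -1.47 ± 0.12 (limma adjusted p = 5.88e-05). Aox3, an aldehyde oxidase, showed the larger fold, from 721, 1022 and 1538 to 120, 215 and 343 normalized reads, 4.69-fold lower. Mylip, the ubiquitin ligase that targets the LDL receptor, was 2.43-fold lower, and Ephx1, the microsomal epoxide hydrolase, 2.26-fold lower. Both had a limma adjusted p of 7.45e-05. Cyp39a1, an oxysterol hydroxylase, fell 3.34-fold, Aldh3a1, an aldehyde dehydrogenase, 3.24-fold, and Hid1, a gene of dense core vesicle formation, 2.25-fold. Adamts5, an aggrecan-cleaving protease, fell 2.84-fold. Tnxb, which encodes a tenascin of the loose matrix, was 2.31-fold lower. In every one of these genes all 7 5/6Nx PD libraries lay below the lowest Sham PD library.

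Among the higher genes, Tfrc, the transferrin receptor that brings iron into cells, lay at 848, 1174 and 1286 normalized reads in Sham PD and 2566, 3408 and 6386 in 5/6Nx PD. The groups were far apart, and the mean was 3.43-fold higher (log2 difference 1.63 ± 0.18, limma adjusted p = 0.000138). Irx4, the ventricle-restricted homeobox factor, rose from 398, 712 and 829 to 1482, 1801 and 2308, again without overlap and 2.64-fold. Lims2 and Fblim1, both adaptors of integrin adhesion sites, were 1.86-fold and 1.64-fold higher. Rras2, a small GTPase, was 1.72-fold higher, and Kpna2, an importin of nuclear transport, 2.00-fold. Slc41a3, a magnesium transporter, Fads3, of the fatty acid desaturase family, and Hacd1, an enzyme of very long chain fatty acid elongation, rose 2.31-fold, 1.60-fold and 1.92-fold. Kcnk3, the TASK-1 background potassium channel, rose 1.77-fold. The 7 5/6Nx PD libraries lay above all 6 Sham PD libraries in each gene of this paragraph.

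**Figure D2:**
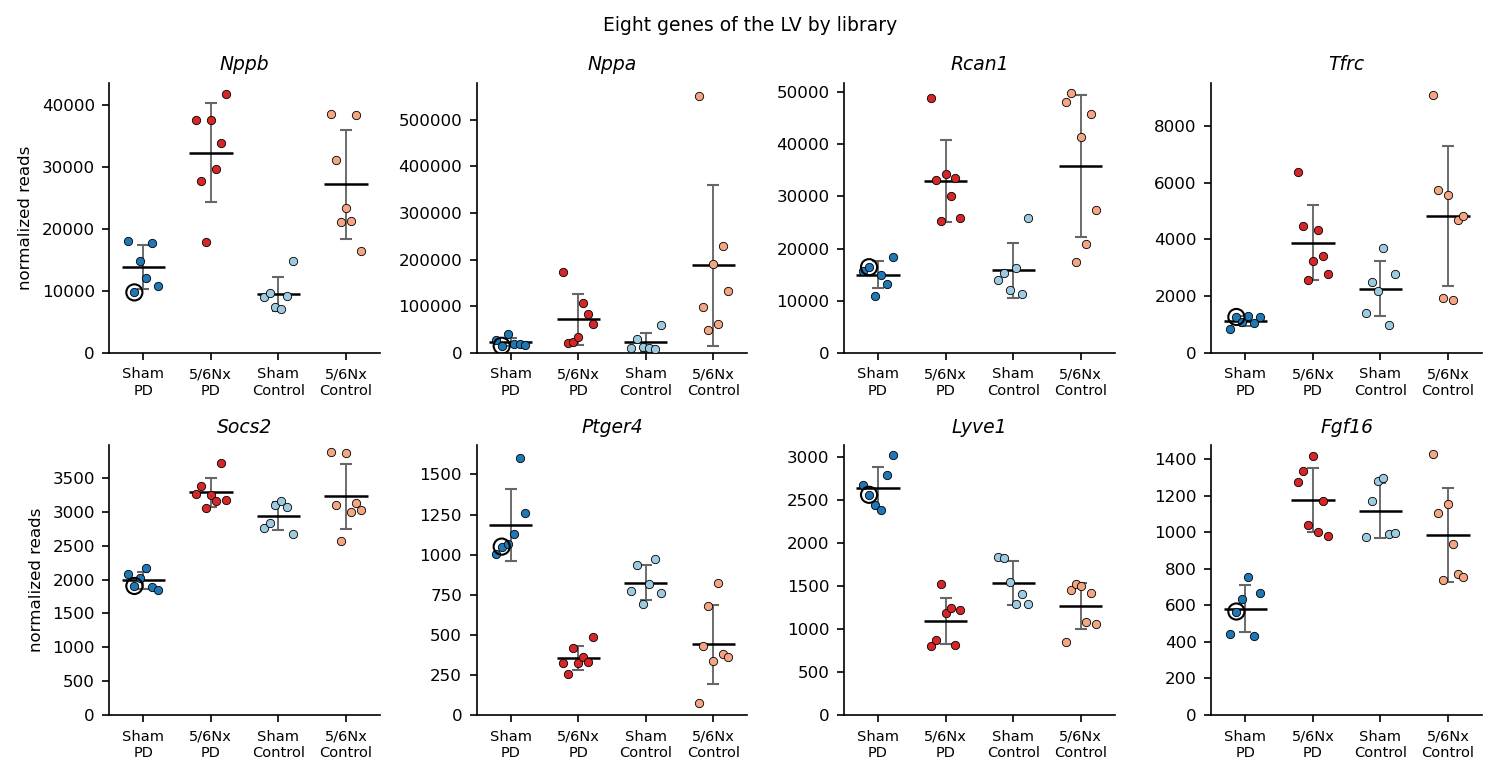
Normalized reads (linear axis) of Nppb, Nppa, Rcan1, Tfrc, Socs2, Ptger4, Lyve1 and Fgf16 in each LV library of the 4 groups, with the mean as a line and the SD as a bar. Tfrc, Rcan1, Socs2 and Fgf16 separate the 2 PD groups upward and Ptger4 and Lyve1 downward, while the PD groups overlap in Nppa and by 1 library in Nppb.

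The fetal and stretch program covers genes that a loaded ventricle is known to re-express. It held 8 higher and 1 lower gene among 16 tested, beside 18.2% and 19.6% of all genes, with a median log2 difference of 0.42. Nppb, which encodes B-type natriuretic peptide, lay at 9738, 13388 and 17994 normalized reads in Sham PD and at 17815, 33861 and 41762 in 5/6Nx PD. A single 5/6Nx PD library fell inside the Sham PD range. The mean was 2.33-fold higher, a log2 difference of 1.21 ± 0.20 (limma adjusted p = 0.000815). Rcan1, the calcineurin regulator whose transcript follows calcineurin activity, rose from 10947, 15305 and 18394 to 25319, 33062 and 48862. It did not overlap between groups, with a 2.21-fold higher mean and a log2 difference of 1.13 ± 0.15 (limma adjusted p = 0.00038). Xirp1, an actin-binding protein of the intercalated disc, rose 2.05-fold, Acta1, skeletal alpha-actin, 1.91-fold (limma adjusted p = 0.00761) and Ankrd1, a titin-associated stretch sensor, 1.74-fold (limma adjusted p = 0.0108).

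Nppa, which encodes atrial natriuretic peptide, was the most variable of these genes. It lay at 14996, 19490 and 39594 normalized reads in Sham PD and at 20179, 62000 and 173619 in 5/6Nx PD, with 4 of 7 libraries above the Sham PD range. Its log2 difference of 1.31 ± 0.44 passed narrowly (limma adjusted p = 0.0305). The adjusted p was 0.0556, 0.0583 and 0.0544 without 5/6Nx PD replicate 1, 5 or 6, and 0.0519, 0.0589, 0.058 and 0.0578 without Sham PD replicate 2, 4, 5 or 6. The sum of the 5 atrial markers, of which Nppa is the largest part, spanned 15850 to 40680 in Sham PD and 21730 to 177200 in 5/6Nx PD, and Nppa was the member that passed among the 4 tested.

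Neither cardiac myosin heavy chain gene passed the threshold. Myh7, the slow fetal isoform, lay at 352956, 550690 and 682337 normalized reads in Sham PD and at 313920, 539222 and 967201 in 5/6Nx PD, overlapping almost throughout (log2 difference 0.13 ± 0.23, limma adjusted p = 0.684). Myh6, the fast adult isoform, lay at 540880, 946742 and 1128750 and at 841780, 1180530 and 1374120 (log2 difference 0.37 ± 0.17, limma adjusted p = 0.0896), and it passed without 5/6Nx PD replicate 7 (0.0419) or Sham PD replicate 2 (0.048). The ratio of Myh7 to Myh6 spanned 0.415 to 1.1 in Sham PD and 0.256 to 0.986 in 5/6Nx PD, and an exact two-sided permutation test on its log2 value over the 6 and 7 rats gave p = 0.478. In Control rats the ratio was higher after 5/6Nx, at 0.439 to 1.196 against 0.285 to 0.627 (exact permutation p = 0.00816). Whether the surgery difference in this ratio differed between PD and Control rats was not tested. For Myh7 itself the test of the difference between these surgery contrasts did not pass (log2 difference -0.80 ± 0.33, limma adjusted p = 0.203).

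Sarcomere genes, which build the contractile filaments, were higher as a group. Of 20 tested, 17 rose and none fell, beside 18.2% of all genes that rose, and their median log2 difference was 0.516. Actc1, cardiac alpha-actin, rose from 436284, 540981 and 591587 to 723083, 819313 and 1095240 normalized reads without overlap, 1.62-fold (limma adjusted p = 0.00138). Ldb3, a Z-disc protein, also rose 1.62-fold. Tnnt2, cardiac troponin T, overlapped between groups at 521588 to 828453 against 656472 to 1059220, 1.32-fold higher (limma adjusted p = 0.0365). Its adjusted p ran from 0.0505 to 0.0877 when 5/6Nx PD replicate 1, 2, 4, 6 or 7 or Sham PD replicate 3, 4 or 5 was left out. The count of higher sarcomere genes was 18 without Sham PD replicate 2 and 17 without 5/6Nx PD replicate 7, but 11 without 5/6Nx PD replicate 1 or Sham PD replicate 3.

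Calcium handling genes store calcium in the sarcoplasmic reticulum, release it at each beat and take it back. This list held 11 higher and 1 lower gene among 16, beside 18.2% and 19.6% of all genes. Its median log2 difference was 0.827. Pln, phospholamban, the brake on the calcium pump, rose from 122880, 139241 and 153300 to 180070, 220830 and 246156 normalized reads, 1.53-fold and without overlap (limma adjusted p = 0.000893). Asph, whose locus also encodes junctin, rose from 3869, 4529 and 6264 to 6650, 9096 and 12336, again without overlap. Casq2, calsequestrin, rose 1.75-fold with 6 of 7 libraries above the Sham PD range. Atp2a2, the SERCA2 pump that phospholamban restrains, rose 1.78-fold (log2 difference 0.88 ± 0.22, limma adjusted p = 0.00764), from 184255, 285176 and 521395 to 358213, 546312 and 737917 with 5 of 7 libraries above.

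Genes of the calcium release unit and the exchanger had larger log2 differences and wider ranges among rats. Jph2, junctophilin 2, which holds the reticulum against the transverse tubule, lay at 1712, 3863 and 13619 normalized reads in Sham PD and at 3155, 14702 and 16049 in 5/6Nx PD (log2 difference 1.56 ± 0.45, limma adjusted p = 0.0152). Ryr2, the calcium release channel, lay at 7275, 15012 and 62747 and at 14924, 50058 and 81728 (1.44 ± 0.48, limma adjusted p = 0.0276). Slc8a1, the sodium-calcium exchanger, lay at 548, 1167 and 5198 and at 1037, 4145 and 6842 (1.51 ± 0.48, limma adjusted p = 0.0232). In these 3 genes the groups overlapped, and the highest Sham PD value was always that of replicate 2. The adjusted p of Ryr2 was 0.0569 and 0.0523 without 5/6Nx PD replicate 1 or 5, and 0.0527, 0.0696, 0.0514 and 0.0665 without Sham PD replicate 1, 3, 4 or 5. That of Slc8a1 was 0.0589 and 0.0571 without Sham PD replicate 3 or 5. Without Sham PD replicate 2 the fold of the means rose from 2.59 to 4.07 for Jph2 (limma adjusted p = 0.00148), from 2.37 to 3.76 for Ryr2 (0.00286) and from 2.61 to 4.45 for Slc8a1 (0.00218). In the same fit the calcium handling list again had 11 higher genes, with a median log2 difference of 0.981.

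**Figure D3:**
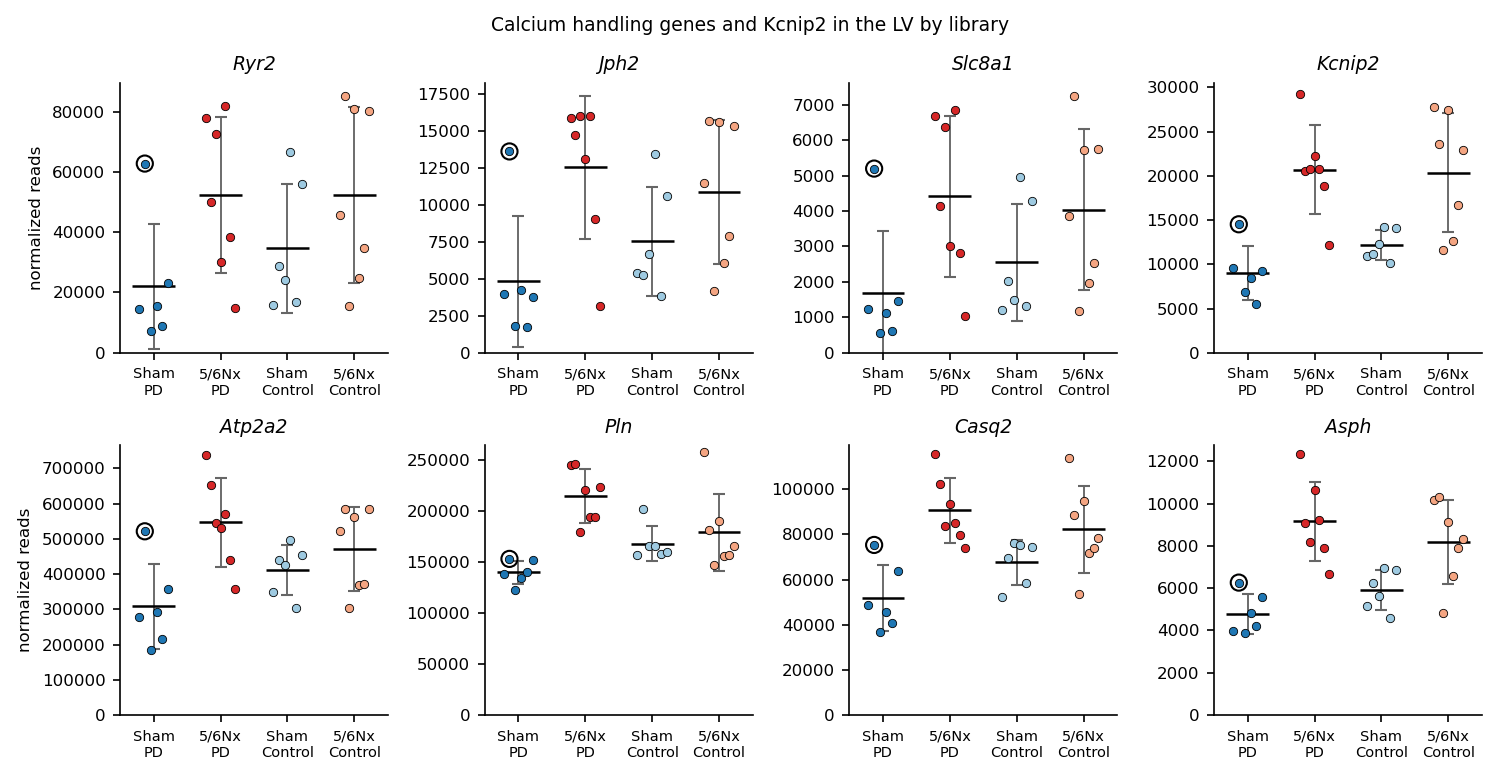
Normalized reads (linear axis) of Ryr2, Jph2, Slc8a1, Kcnip2, Atp2a2, Pln, Casq2 and Asph in each LV library of the 4 groups, with the mean as a line and the SD as a bar. Sham PD replicate 2, ringed, is the highest Sham PD library in Ryr2, Jph2, Slc8a1 and Kcnip2, and the PD groups separate fully in Pln and Asph.

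Ion channel genes followed the same direction, with 14 higher and none lower among 21 tested (median log2 difference 0.639), beside 18.2% of all genes. Kcnip2, the subunit that sets the transient outward potassium current, rose from 5515, 8830 and 14529 to 12243, 20740 and 29316 normalized reads, 2.29-fold (limma adjusted p = 0.00103). Kcnh2, the rapid delayed rectifier, rose 1.61-fold. The highest Sham PD value of Kcnip2 was again that of replicate 2, without which the fold was 2.61 (limma adjusted p = 0.000301). Gja1, connexin 43, rose 1.46-fold (limma adjusted p = 0.0121). Adrenergic and cyclic nucleotide genes were divided, with 5 higher and 6 lower among 22, beside 18.2% and 19.6% of all genes. Adra1d, an alpha-1 adrenoceptor, rose from 111, 229 and 332 to 301, 474 and 533 (log2 difference 0.76 ± 0.15, limma adjusted p = 0.00228). The 5 higher genes became 8 without 5/6Nx PD replicate 7 and 3 without Sham PD replicate 3 or 5. The summed sarcomere markers are the same genes as the sarcomere list and no separate measure. They rose with the other myocyte genes of these paragraphs, as given above, and their part in the result was not tested.

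Fuel genes were shifted toward higher levels as well. Of 23 fatty acid oxidation genes, 16 rose and none fell, beside 18.2% of all genes that rose, with a median log2 difference of 0.465. Echs1, the mitochondrial enoyl-CoA hydratase, rose from 8231, 12127 and 13994 to 16728, 18264 and 25056 normalized reads without overlap, 1.71-fold (limma adjusted p = 0.0015). Etfa, which passes electrons from the acyl-CoA dehydrogenases, rose 1.60-fold without overlap. Acsl1, which activates long-chain fatty acids, rose 1.93-fold, Cpt1b, the muscle carnitine palmitoyltransferase that admits them to mitochondria, 1.59-fold, and Hadhb, a subunit of the trifunctional protein, 2.00-fold with wide overlap (13728 to 67905 against 34133 to 91542). Without Sham PD replicate 3 or 5 the count of higher genes was 10. Among 19 PPAR targets 9 rose and 1 fell, beside 18.2% and 19.6% of all genes. The 9 became 4 without Sham PD replicate 3 or 5. Plin5, the lipid droplet coat protein that docks at mitochondria, rose from 1790, 2548 and 3122 to 3220, 3882 and 5110, 1.59-fold and without overlap (limma adjusted p = 0.00268).

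Glucose uptake and glycolysis held 17 higher genes and 1 lower gene among 28, beside 18.2% and 19.6% of all genes. This list's median log2 difference was 0.436. Tpi1, triosephosphate isomerase, rose 1.67-fold without overlap, from 15783, 18074 and 20799 to 24433, 29880 and 38781 normalized reads (limma adjusted p = 0.000898). Slc16a1, the lactate and ketone transporter MCT1, rose 2.27-fold. The lower gene was Pfkfb3, which makes the activator of phosphofructokinase, at 2198, 3428 and 4998 in Sham PD and 711, 1470 and 2361 in 5/6Nx PD, 2.40-fold lower (limma adjusted p = 0.00145). Oxidative phosphorylation subunits had 38 higher and no lower genes among 80, beside 18.2% of all genes that rose, with a median of 0.326. Without overlap 9 of these subunits lay above, beside 4.03% of all genes. Sdhc and Sdhd, the membrane anchors of succinate dehydrogenase, both rose 1.51-fold, and Atp5s, an ATP synthase coupling factor gene, rose 1.73-fold.

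Proteasome subunits had 13 higher and no lower genes among 37. That is 35.1%, beside 18.2% of all genes that rose and 37.8% called in either direction. The count of 13 was 7 without Sham PD replicate 3 or 4. Psmc6, an ATPase of the regulatory particle, rose 1.39-fold without overlap (limma adjusted p = 0.00354). Of 88 cytosolic ribosomal protein genes, 2 rose and 1 fell, which is 3.41% beside 37.8% of all genes, and their median log2 difference was -0.0503. The lower gene was Rpl3, 1.41-fold lower (limma adjusted p = 0.00476). Atrophy and FOXO targets had 7 higher and no lower genes among 18 (38.9%, beside 18.2% of all genes that rose). Cdkn1a, the p21 cell cycle inhibitor, rose from 1697, 2224 and 2652 to 3488, 4548 and 7123 without overlap, 2.28-fold (limma adjusted p = 0.00038), and Klf15, a factor of amino acid and lipid catabolism, 1.63-fold. Bnip3, a mitophagy receptor, rose 1.92-fold.

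**Figure D4:**
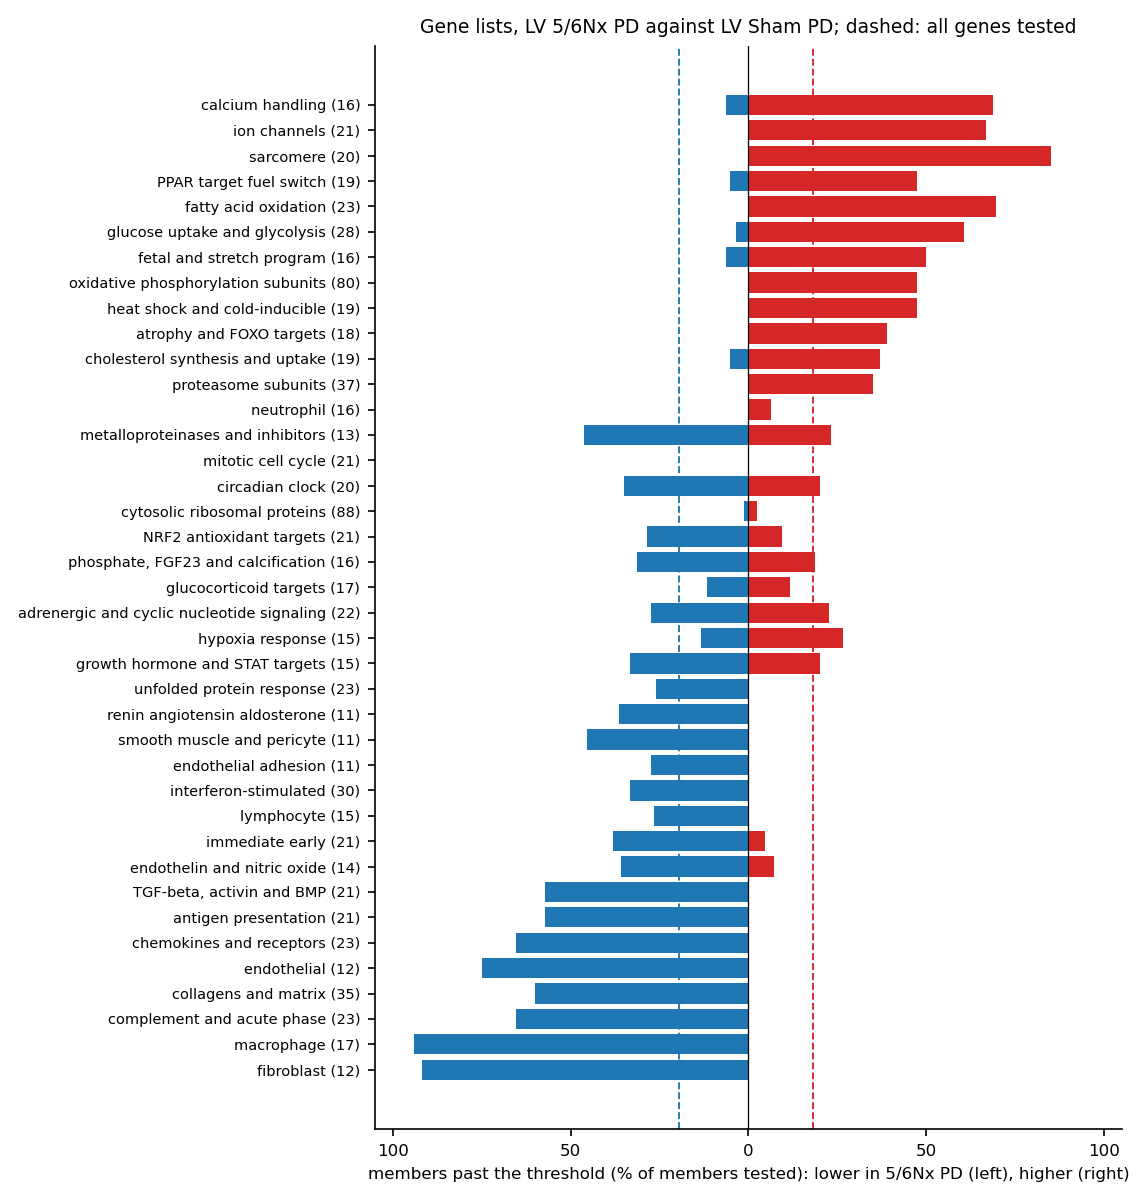
Share (percent) of the tested members of each gene list that passed the threshold higher (right) or lower (left) in 5/6Nx PD than in Sham PD, for lists with at least 10 tested members, with dashed lines at the shares of all tested genes, 18.2% higher and 19.6% lower. Sarcomere, calcium handling and fatty acid oxidation extend to the right, and macrophage, fibroblast and complement to the left.

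The fibroblast list, which marks the interstitial matrix-making cells, was lower almost throughout. Of 12 genes 11 were lower and 7 of them did not overlap, beside 19.6% and 6.01% of all genes. This list's median log2 difference was -1.23. Dcn, decorin, lay at 42236, 48692 and 52299 normalized reads in Sham PD and at 6733, 14659 and 28256 in 5/6Nx PD. Every 5/6Nx PD library was under the lowest Sham PD library, and the mean was 2.93-fold lower (log2 difference -1.70 ± 0.27, limma adjusted p = 0.000762). Gsn, gelsolin, an actin-severing protein, fell from 135580, 163932 and 188895 to 32338, 53284 and 100431, 2.60-fold and without overlap (limma adjusted p = 0.000762). Scara5, a ferritin receptor of adventitial fibroblasts, fell 3.35-fold, and Dpt, dermatopontin, 2.28-fold. The 11 lower genes were 11 without Sham PD replicate 2 and 10 without 5/6Nx PD replicate 7.

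Collagens and other matrix genes followed, with 21 lower and none higher among 35 (median log2 difference -0.66), beside 19.6% of all genes that fell. Col14a1, a collagen that decorates fibrils, fell from 3011, 3728 and 4600 to 603, 1270 and 2173 normalized reads, 3.01-fold (log2 difference -1.58 ± 0.21, limma adjusted p = 0.00038). Bgn, biglycan, fell 1.85-fold, also without overlap. The chains of the abundant fibrillar collagens moved less and overlapped. Col1a1 lay at 9634, 12195 and 19488 against 4440, 8395 and 12564 (limma adjusted p = 0.0479), and Col3a1 at 29936, 42789 and 53214 against 15411, 27584 and 41228 (limma adjusted p = 0.0478). Neither passed when 5/6Nx PD replicate 1, 2, 6 or 7 or Sham PD replicate 1, 3 or 4 was left out, with adjusted p from 0.0712 to 0.112 for Col1a1 and from 0.0678 to 0.107 for Col3a1. Spon1, an F-spondin of the matrix, fell 2.81-fold without overlap (limma adjusted p = 0.00123).

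Metalloproteinases and their inhibitors had 6 lower and 3 higher genes among 13, beside 19.6% and 18.2% of all genes. The list's median log2 difference of 0.0775 was -0.0885 on log2 of normalized reads plus 1 and -0.375 in limma-voom with sample quality weights. Mmp2, gelatinase A, fell from 8663, 10559 and 12687 to 3810, 5945 and 7343 normalized reads, 1.90-fold and without overlap (limma adjusted p = 0.00136), and Timp1, an inhibitor of these enzymes, fell 1.68-fold (limma adjusted p = 0.00515). TGF-beta, activin and BMP genes had 12 lower and no higher members among 21 (median -0.471), beside 19.6% of all genes that fell. Bmp6, a bone morphogenetic protein that endothelium uses to report iron stores in the liver, fell 2.04-fold, and Bmp4 2.18-fold, both without overlap. Of 16 tested genes of phosphate, FGF23 and calcification, 5 fell and 3 rose (median -0.0758), beside 19.6% and 18.2% of all genes. Mgp, the matrix Gla protein that inhibits calcification, fell from 43766, 54545 and 61756 to 18917, 29480 and 33665, and Enpp1, which makes the mineralization inhibitor pyrophosphate, fell 1.79-fold, both without overlap. Fgf23, the phosphate-regulating hormone, did not pass (limma adjusted p = 0.196). It lay at 0, 76.1 and 107 in Sham PD and 41.4, 78.3 and 778 in 5/6Nx PD, where replicates 6 and 7 stood above the Sham PD range at 421 and 778. The mean was 3.34-fold that of Sham PD, or 1.91-fold without 5/6Nx PD replicate 7. Fibroblast markers fell beside all of these lists, and their part in the result was not tested.

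Endothelial genes were lower in 9 of 12, beside 19.6% of all genes, with a median log2 difference of -0.553 and none without overlap. Kdr, the main VEGF receptor, lay at 20044, 25400 and 30328 normalized reads against 10325, 13882 and 23573 (1.63-fold lower, limma adjusted p = 0.00301), with 6 of 7 libraries below the Sham PD range. Tek, the angiopoietin receptor, fell 1.55-fold and Cdh5, VE-cadherin, 1.46-fold. The count was 5 without Sham PD replicate 5, 10 without Sham PD replicate 2 and 11 without 5/6Nx PD replicate 7. Among 11 leukocyte and endothelial adhesion genes 3 fell and none rose. This share of 27.3% lies beside 19.6% of all genes that fell and 37.8% called in either direction. Cd34, an endothelial and progenitor sialomucin, was 1.79-fold lower. Smooth muscle and pericyte genes had 5 lower members of 11 (45.5%, beside 19.6% of all genes that fell). They included Pdgfrb, the PDGF receptor of mural cells, 1.86-fold lower from 7894, 9750 and 11625 to 4038, 5255 and 6133 (limma adjusted p = 0.000339), and Cspg4, the NG2 proteoglycan of pericytes, with a log2 difference of -0.55 ± 0.10. The summed mural markers of the Sham PD libraries ran from 73390 to 90180, above the 52110 to 70040 of 5/6Nx PD.

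In the renin angiotensin aldosterone list 4 of 11 genes fell and none rose. This share of 36.4% stands beside 19.6% of all genes that fell and 37.8% called in either direction. Ace, angiotensin-converting enzyme, fell 1.85-fold (2274, 2950 and 4232 against 892, 1782 and 2872 normalized reads, limma adjusted p = 0.00642), Agtr1a, the type 1 angiotensin receptor, 1.71-fold, and Hsd11b1, which regenerates active glucocorticoid, 1.89-fold. Of 14 endothelin and nitric oxide genes, 5 fell and 1 rose (42.9% called), and the 5 became 8 without 5/6Nx PD replicate 7. Gucy1a3, the alpha subunit of the nitric oxide receptor guanylate cyclase, fell 1.59-fold without overlap (limma adjusted p = 0.000803). The higher gene was Ddah1, which breaks down the nitric oxide synthase inhibitor dimethylarginine, from 1771, 2227 and 3355 to 3298, 4215 and 5478, 1.78-fold (limma adjusted p = 0.00163).

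Macrophage genes were the list with the largest share of lower members, 16 of 17 tested, beside 19.6% of all genes that fell. Of these 13 did not overlap, beside 6.01% of all genes, and the list's median log2 difference was -1.20. Lyve1, a hyaluronan receptor that marks perivascular resident macrophages and lymphatics, lay at 2385, 2616 and 3026 normalized reads in Sham PD and at 804, 1184 and 1520 in 5/6Nx PD. No library of 1 group entered the range of the other, and the mean was 2.42-fold lower (log2 difference -1.22 ± 0.13, limma adjusted p = 0.000137). Mrc1, the mannose receptor of resident macrophages, fell from 1491, 2165 and 2943 to 337, 645 and 1193, 3.14-fold (log2 difference -1.56 ± 0.24, limma adjusted p = 0.000609). Cd163, the haemoglobin scavenger receptor, fell 2.56-fold and Cd14, the endotoxin co-receptor, 2.67-fold, both without overlap. C1qb, a chain of complement C1q made by macrophages, fell from 4241, 4488 and 5555 to 1221, 1674 and 2700, also without overlap (limma adjusted p = 0.00021). The count of lower genes was also 16 when Sham PD replicate 2, 5/6Nx PD replicate 7 or the pair of them was left out.

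Complement and acute phase genes had 15 lower and no higher members among 23, beside 19.6% of all genes that fell. This list had 10 members without overlap, beside 6.01% of all genes, and a median log2 difference of -0.73. C7, a terminal complement component, lay at 9974, 13606 and 15862 normalized reads against 1459, 3968 and 8238, 3.41-fold lower (log2 difference -1.91 ± 0.30, limma adjusted p = 0.000711). C1r, the C1 protease, fell 2.78-fold and C4a (the entry ENSRNOG00000000443, which shares its name and possibly its reads with a second copy) 2.85-fold. Chemokines and their receptors had 15 lower and no higher genes among 23, again beside 19.6% of all genes. Cxcl13, the B cell chemoattractant, was at 152, 212 and 426 in Sham PD and at 8.56, 63.3 and 97.9 in 5/6Nx PD, 4.70-fold lower, and Cxcr4, the CXCL12 receptor, fell 2.02-fold. Cxcl9, an interferon-induced T cell chemoattractant, fell 1.59-fold.

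Antigen presentation genes had 12 lower and no higher members among 21 (median -0.481), beside 19.6% of all genes that fell. The class II genes RT1-Bb and RT1-Ba fell 3.02-fold and 2.47-fold without overlap, RT1-Bb from 1264, 2125 and 3373 to 267, 823 and 1038 normalized reads (limma adjusted p = 0.00107). Interferon-stimulated genes had 10 lower and no higher members among 30, or 33.3%, beside 19.6% of all genes that fell and 37.8% called either way. The 10 became 5 without 5/6Nx PD replicate 1 or 5 or Sham PD replicate 3, 4 or 5, and 4 without Sham PD replicate 1. Gbp5, a guanylate-binding protein of the interferon gamma response, fell 1.88-fold. Among 15 lymphocyte genes 4 fell, or 2 without Sham PD replicate 1. The 4 are 26.7% of those tested, beside 19.6% of all genes that fell and 37.8% called in either direction. Cd4, which T helper cells share with rat macrophages, was 3.22-fold lower, from 759, 1135 and 2017 to 216, 301 and 775 (limma adjusted p = 0.00111). The summed lymphocyte markers were low, at 2431 to 4654 in Sham PD and 758.3 to 2488 in 5/6Nx PD. Neutrophil markers overlapped between the groups. Their sum lay at 11700, 15610 and 25040 in Sham PD and 9004, 21440 and 29310 in 5/6Nx PD, and of 16 tested 1 passed, Mmp9, gelatinase B, 1.49-fold higher (limma adjusted p = 0.036). Mmp9 lost the threshold when 5/6Nx PD replicate 1, 2, 3, 4 or 7 or Sham PD replicate 1, 2, 3, 4 or 6 was left out, with adjusted p from 0.0527 to 0.0767. Macrophage markers fell beside these immune lists, and their part in the result was not tested.

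Of 15 growth hormone and STAT targets tested, 3 rose and 5 fell, beside 18.2% and 19.6% of all genes. The 5 became 3 without Sham PD replicate 4 and 2 without Sham PD replicate 5. Socs2, the STAT5-induced inhibitor of growth hormone signalling, lay at 1846, 1962 and 2177 normalized reads in Sham PD and at 3057, 3254 and 3720 in 5/6Nx PD. The groups were tight and well separated, with a 1.65-fold higher mean (log2 difference 0.69 ± 0.07, limma adjusted p = 7.45e-05). Cish, another cytokine-induced inhibitor, rose from 543, 923 and 1198 to 1660, 3013 and 4579, 3.44-fold and without overlap (limma adjusted p = 0.000383). Igf1, the growth factor itself, fell from 690, 784 and 920 to 226, 421 and 548, 1.92-fold and without overlap (limma adjusted p = 0.00135).

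Clock genes passed in both directions, 4 higher and 7 lower of 20, beside 18.2% of all genes that rose and 19.6% that fell. Arntl, which encodes the activator BMAL1, rose from 274, 316 and 387 to 452, 742 and 990 normalized reads without overlap (2.35-fold, limma adjusted p = 0.000913). The repressors and output genes went the other way. Per3 fell from 2125, 2715 and 3242 to 648, 1274 and 1584 (2.18-fold, limma adjusted p = 0.000612), Per2 fell 1.94-fold, and Dbp, an output factor, 1.83-fold from 6071, 8128 and 10126 to 3251, 4380 and 6048. The hour at which each rat was sampled was not used here.

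Glucocorticoid targets had 2 higher and 2 lower genes among 17, a share of 23.5% beside 37.8% of all genes. Zbtb16, a hormone-induced zinc finger factor, rose 4.11-fold (149, 222 and 1312 normalized reads against 535, 1543 and 2854, limma adjusted p = 0.00266). The Sham PD value of 1312 was that of replicate 2, and without it the fold was 7.65 (limma adjusted p = 0.000282). Dusp1, a MAP kinase phosphatase, fell 1.26-fold (limma adjusted p = 0.0171). Immediate early genes had 8 lower and 1 higher among 21 (42.9% called), but 5 lower without 5/6Nx PD replicate 1, 2 or 4 or Sham PD replicate 3 or 5, and 4 without Sham PD replicate 4. Nr4a2, an orphan nuclear receptor, fell 1.81-fold, Egr3, a zinc finger factor, lay at 42.6 to 143 in Sham PD and 0 to 26.9 in 5/6Nx PD, and Klf2, the shear-induced endothelial factor, fell 1.89-fold.

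Of the stress response lists, heat shock genes had 47.4% of their members called, unfolded protein response genes 26.1%, NRF2 targets 38.1% and hypoxia genes 40%, beside 37.8% of all genes. Heat shock and cold-inducible genes had 9 higher and no lower members among 19, beside 18.2% of all genes that rose. Among them were Hspb6, a small heat shock protein of muscle, 1.55-fold higher and without overlap, and Hspa4l, 2.59-fold higher. Unfolded protein response genes had 6 lower and no higher members among 23, beside 19.6% of all genes that fell. Pdia4, an endoplasmic reticulum disulphide isomerase, fell 1.74-fold from 4688, 5670 and 8282 to 2668, 3356 and 4054 normalized reads (limma adjusted p = 0.00141). Of 21 NRF2 and antioxidant genes 2 rose and 6 fell. Sod3, the extracellular superoxide dismutase, fell 2.41-fold (6360, 7272 and 8416 against 1876, 2857 and 4412, limma adjusted p = 0.000384) and Gpx3, the secreted glutathione peroxidase, 1.80-fold, both without overlap. Hypoxia response genes had 4 higher and 2 lower members among 15, and the 2 became 6 without 5/6Nx PD replicate 7. Egln3, an oxygen-sensing prolyl hydroxylase, rose from 6743, 8089 and 12364 to 14806, 19751 and 31147, 2.43-fold and without overlap (limma adjusted p = 0.00038).

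Cholesterol synthesis and uptake genes had 7 higher and 1 lower member among 19, or 42.1% called beside 37.8% of all genes. Cyp51, lanosterol demethylase, rose 1.45-fold from 1328, 1475 and 1958 to 1846, 2267 and 2787 normalized reads (limma adjusted p = 0.00217), Hmgcs1, the HMG-CoA synthase of the sterol pathway, 1.38-fold and Idi1, isopentenyl diphosphate isomerase, 1.40-fold. None of 21 mitotic genes passed in limma, nor did any at an unadjusted p under 0.05 there or in limma-voom on recovered reads, and 1 passed in limma-voom with sample quality weights. The member of smallest p was Ccna2, cyclin A2, at 0 to 44.3 in Sham PD and 22.8 to 110 in 5/6Nx PD (limma adjusted p = 0.148).

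The remaining marker lists described what else the tissue pieces held. Among 7 tested erythroid genes 2 were lower (28.6%, beside 19.6% of all genes that fell and 37.8% called). They were Alas2, the erythroid haem synthase, and Hbb, a beta globin. Alas2 lay at 6152, 7311 and 7917 normalized reads against 2456, 4587 and 9596 (limma adjusted p = 0.0242), and Hbb was 1.47-fold lower (limma adjusted p = 0.035). Both overlapped, with 5/6Nx PD replicate 7 above the Sham PD range. Hbb lost the threshold when 5/6Nx PD replicate 1, 3, 4 or 6 or Sham PD replicate 1, 3, 4, 5 or 6 was left out, with adjusted p from 0.0523 to 0.0699. Adipocyte markers summed to 1213 to 1642 in Sham PD and 178.4 to 797.0 in 5/6Nx PD, without overlap, and 1 of the 2 that could be tested fell. Of the mesothelial and epicardial markers 2 were tested, and neither passed in limma, at an adjusted or an unadjusted p under 0.05, nor in limma-voom on recovered reads. Wt1 had an adjusted p of 0.122 that was 0.0257 without 5/6Nx PD replicate 7 and 0.0438 without Sham PD replicate 2.

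Set against the same surgery in rats without dialysate, the PD contrast was the larger in number of calls. Surgery moved 11 of 15792 genes past the threshold in Control rats (0.0697%), with 9 of them higher after 5/6Nx, and 2757 genes had an unadjusted p under 0.05. The count of 11 was 304, 80 and 21 without 5/6Nx Control replicate 3, 5 or 1, 6 without 5/6Nx Control replicate 6 or Sham Control replicate 2 or 5, and 7 without Sham Control replicate 1 or 4. The 2 contrasts share no library. Of 5948 genes called in PD rats and tested in both, 5070 (85.2%) differed in the same direction in Control rats, beside 71.3% of all 15613 genes tested in both. Genes higher in 5/6Nx PD had a median log2 difference of 0.457 in PD rats and 0.155 in Control rats, and lower genes -0.495 and -0.198. In 5662 of the 5948 the difference was larger in PD rats, where the genes were selected, beside 11060 of all 15613 genes tested in both.

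Genes called in both contrasts numbered 7. Nppb was 1.48 log2 units higher after 5/6Nx in Control rats (limma adjusted p = 0.0123), with 7073, 9097 and 14802 normalized reads in Sham Control and 16474, 23306 and 38587 in 5/6Nx Control. Its surgery difference did not pass a test between PD and Control rats (-0.27 ± 0.30, limma adjusted p = 0.671). Asb2, a muscle ubiquitin ligase adaptor, rose 1.75-fold in PD rats (limma adjusted p = 0.00407) and by 0.71 log2 units in Control rats (limma adjusted p = 0.0114). Spon1 differed by -0.87 log2 units in Control rats (limma adjusted p = 0.0329). A further 4 genes, Wisp2, Adamtsl2, Ltbp2 and Fbxo2, passed in Control rats and not in PD rats. Wisp2, a matricellular protein, was 1.23 log2 units higher after 5/6Nx in Control rats (limma adjusted p = 0.0114) and -0.25 ± 0.25 in PD rats, and these differed (-1.48 ± 0.31, limma adjusted p = 0.0279). Adamtsl2, a microfibril-binding matrix protein, was 1.30 higher in Control rats (limma adjusted p = 0.0114) and 0.47 in PD rats, with no call for the difference (limma adjusted p = 0.159).

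The test of the difference between the 2 surgery contrasts called 113 of 16312 genes (0.693%), 54 positive and 59 negative. The count moved with single libraries. It was 2 without Sham Control replicate 4, between 24 and 67 without 5/6Nx Control replicate 3, 5 or 6, 5/6Nx PD replicate 1, 2, 4 or 6, Sham Control replicate 2 or 6 or Sham PD replicate 1, 3, 4 or 5, and 695, 640, 247, 188, 187 and 170 without 5/6Nx Control replicate 1, Sham PD replicate 2, 5/6Nx PD replicate 7, Sham PD replicate 6 and Sham Control replicate 1 or 5. In 98 of the 113 genes (86.7%) the Sham PD mean was the highest or the lowest of the 4 groups, beside 68.5% of all genes tested in both. The 5/6Nx PD mean was the highest or the lowest in 95 (84.1%), beside 62.1% of all genes. In 93 of the 113 the direction in Control rats was opposite, while 71.3% of all genes tested in both had the same direction. The 113 genes were picked by a test on these same 4 groups, and that selection favours such patterns.

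Lyve1 averaged highest in Sham PD, with medians of 2616 normalized reads in Sham PD, 1184 in 5/6Nx PD, 1477 in Sham Control and 1424 in 5/6Nx Control, and the Sham PD range of 2385 to 3026 lay above every other LV library. Its surgery difference was -1.22 log2 units in PD rats and -0.26 in Control rats, and the difference between them was -0.96 ± 0.20 (limma adjusted p = 0.0279). C1qb had medians of 4488, 1674, 2310 and 2634 in the same order (-1.34 ± 0.26, limma adjusted p = 0.0213), and Cd163 of 1230, 415, 622 and 702 (-1.23 ± 0.26, limma adjusted p = 0.0279). The macrophage list supplied 7 of the 113 genes, from 17 members tested, and the matrix list 5, from 35, beside 0.693% of all genes. The count of 113 moved with single libraries, as given above. The summed macrophage markers were 45280 to 65120 in Sham PD against 23950 to 53190 in Sham Control. Cyp26b1, which degrades retinoic acid, had medians of 1982, 750, 351 and 494 (-1.76 ± 0.36, limma adjusted p = 0.0264).

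Fgf16, a cardiac myocyte growth factor, had medians of 600 normalized reads in Sham PD, 1173 in 5/6Nx PD, 1084 in Sham Control and 936 in 5/6Nx Control, and its Sham PD range of 431 to 754 overlapped only 5/6Nx Control, whose lowest value was 740. The difference between the surgery contrasts was 1.09 ± 0.19 (limma adjusted p = 0.0211). Socs2 had medians of 1962, 3254, 2955 and 3108 and a Sham PD range of 1846 to 2177 under every other LV library (0.57 ± 0.11, limma adjusted p = 0.0213). Adra1d had medians of 229, 474, 458 and 319 (1.09 ± 0.20, limma adjusted p = 0.0211), and Kpna2 of 5433, 10091, 6953 and 8300 (0.74 ± 0.16, limma adjusted p = 0.0279). Nae1, a subunit of the NEDD8-activating enzyme, had medians of 625, 845, 856 and 675, so that 5/6Nx went with a higher level under PD and a lower level in Control rats (0.67 ± 0.11, limma adjusted p = 0.0187). Nae1 passed whichever of the 26 libraries was left out. Fgf16, C1qb, Socs2 and Adra1d passed in 25 of the 26 such fits, Lyve1 and Cyp26b1 in 24, Cd163 and Kpna2 in 22 and Wisp2 in 20, with highest adjusted p between 0.0506 and 0.0591.

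**Figure D5:**
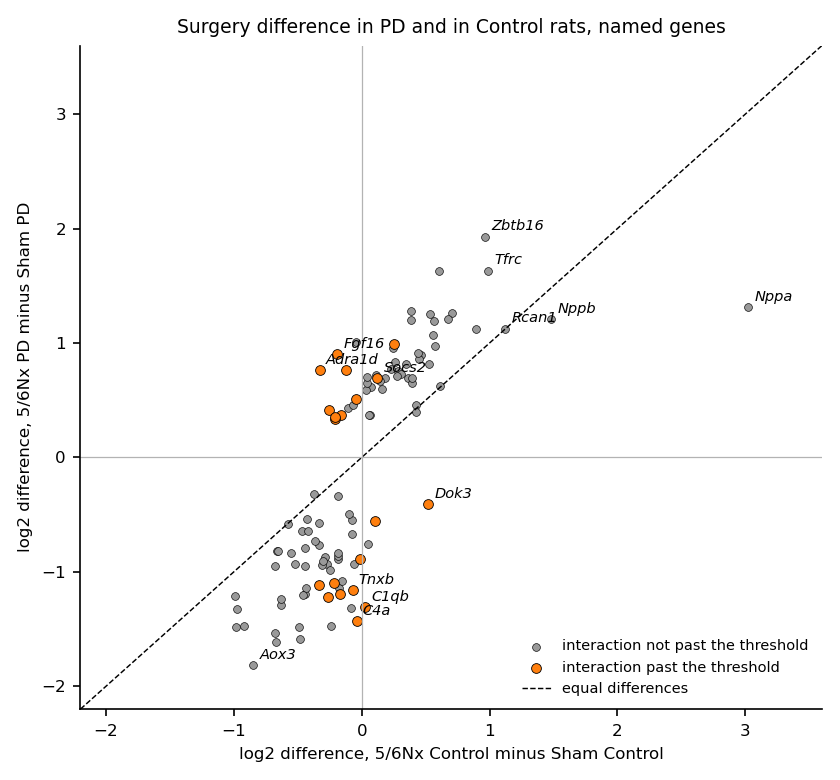
Log2 difference (5/6Nx minus Sham, variance-stabilised scale) of the genes named by rule in Control rats (horizontal axis) and in PD rats (vertical axis), with the 20 genes called in the difference between contrasts in orange and a dashed line where both differences are equal. In 107 of the 112 genes the difference is larger in PD rats, the contrast in which most of them were chosen, beside 11060 of all 15613 genes tested in both.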

How the data were processed

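Poly(A) RNA from 52 rat heart and kidney pieces was sequenced paired-end from stranded libraries. Per the submitters' processing notes and the methods, the authors trimmed reads with Trim Galore and cutadapt, aligned them to rn6 with HISAT2, quantified transcripts with StringTie2 and tested differential expression with DESeq2. The strand setting of the counting is not given in the sources used here. The deposited table holds log2 values, which the authors made by a variance-stabilising transformation over all 52 libraries. Reversing it gave whole reads for 1072448 of 1072448 values (within 1e-05 of a read), and these reads gave the depths and the normalized reads in the text. On the deposited scale 10, 100 and 1000 normalized reads lie at 6.5, 7.67 and 10.13. The other deposited tables hold the authors' own comparisons of PD with Control (log2 fold changes, p-values and adjusted p-values) and were not used.

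Groups came from the sample labels. Genes with at least 10 normalized reads in at least 6 of the libraries compared were fitted with limma 3.58.1 and statmod 1.5.0 in R 4.3.3 on the log2 values, with the trend and robust options, with Benjamini-Hochberg adjustment over all tested genes. Main fits held only the 13 libraries of a comparison, and the difference between surgery contrasts all 26 LV libraries. No 2 LV libraries of the same group agreed within sampling noise. Of 20624 genes, 1008 share a name with another entry. The alternatives were no filter, a minimum of 100 normalized reads, log2 of normalized reads plus 1 or plus 10, size factors within the comparison, limma-voom on recovered reads without and with sample quality weights, limma without trend and robust settings, all 4 LV groups in 1 fit, and leaving out each library. Folds without single libraries, and the fit without both Sham PD replicate 2 and 5/6Nx PD replicate 7, were added after seeing the data. The fit was tested on simulated data.

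The members and the lists were chosen with earlier results of these data known. The text names, among genes averaging 100 or more normalized reads in either group, the 12 that rose and the 12 that fell with the lowest adjusted p, up to 3 passing members of each list by p (or the best member where none passed), Myh6, Tnnt2, Nppa and Nppb, and the 8 such genes with the lowest adjusted p in the difference between contrasts. Named outside that rule, after their values were seen, were Myh7, Acta1, Ankrd1, Atp2a2, Ryr2, Slc8a1, Jph2, Dcn, C7, Fgf23, Gja1, Mrc1, Cd163, Col1a1, Col3a1, Cpt1b, Hadhb, Timp1, Wisp2, Ltbp2, Fbxo2, Adamtsl2, Spon1, Asb2, Per2 and Cyp26b1, as was the ratio of Myh7 to Myh6. A few items are not reported here. The exact permutation tests enumerated every split of the rats.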

Additional observations from a re-analysis of the deposited data

Results flagged for a closer look

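In 14 of 272 sets of values (a named gene within the 6 Sham PD or the 7 5/6Nx PD libraries, 5.1%), the highest or lowest library lay farther from its neighbour than Dixon's 95% limit allows, where chance gives about 1 in 20. The figures that follow are the gap to the nearest library as a share of the range of the group. Sham PD replicate 2 gave 5 of them. It was highest in Zbtb16 (0.896), Slc8a1 (0.803), Jph2 (0.79) and Ryr2 (0.713), and lowest in Cdh5 (0.694). 5/6Nx PD replicate 7 gave 3, highest in Alas2 (0.611) and Hbb (0.58) and lowest in Xirp1 (0.603). Sham PD replicate 1 was highest in Cd14 (0.692) and C1qb (0.634), and 5/6Nx PD replicate 1 in Ankrd1 (0.652) and Rcan1 (0.621). Scara5 was highest in Sham PD replicate 3 (0.811) and Mmp9 in Sham PD replicate 5 (0.673).

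For 24 named genes the surgery difference itself differed between PD and Control rats in limma, at adjusted p from 0.0187 to 0.048, and the values here are the log2 difference under PD minus that in Control rats. The value was positive for Adra1d (1.09), Fgf16 (1.09), Rd3l (0.88), Kpna2 (0.74), Nae1 (0.67), Socs2 (0.57), Idi1 (0.57), Cyp51 (0.56), Lrrc1 (0.54) and Tiprl (0.53). It was negative for Wisp2 (-1.48), Tnxb (-1.09), Timp1 (-0.95), Bgn (-0.87), C4a (-1.39), C1qb (-1.34), Cd163 (-1.23), Cd14 (-1.03), Lyve1 (-0.96), Cyp26b1 (-1.76), Dok3 (-0.93), an adaptor of immune receptors, Hid1 (-0.88), Cyp39a1 (-0.79) and Cspg4 (-0.66). Of the 26 fits that each left out a library, Nae1 passed in all and 9 genes (Fgf16, C1qb, Tnxb, Socs2, Rd3l, Tiprl, Lrrc1, Dok3 and Adra1d) in 25. The least stable were Cyp39a1, Idi1, Cd14, Cyp51 and Hid1, which passed in 5, 6, 11, 11 and 13 of them.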

How the results depend on the processing

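The count of 5969 called genes in the PD contrast lay between 5573 and 7436 under the other settings and between 4603 and 6642 when a library was left out. Of the 129 named genes past the threshold, 10 lost it under at least 1 of 22 settings (those above with named libraries, and Alas2 and Dusp1). Alas2 (adjusted p = 0.059), Dusp1 (0.0838), Nppa (0.0526) and Hbb (0.097) did not pass in the limma fit of all 4 LV groups. Col1a1 did not pass with no filter (0.0613), log2 of normalized reads plus 1 (0.0504) or size factors within the comparison (0.0535), and Col3a1 not with no filter (0.0609) or those size factors (0.0539). Myh7 turned to -0.0798 with limma-voom and sample quality weights, which called Myh6 (0.0444) and Wt1 (0.0323), and the cause was not tested. The Control count of 11 was 661 with those weights, 263 with all 4 groups in 1 fit, and 6 to 304 leaving out a library. The 113 genes of the difference between contrasts were 57 with no filter, 170 at a minimum of 100 normalized reads, 242 with limma-voom, 1023 with weights, and 2 to 695 leaving out a library. The causes were not tested. Counts of 4 or fewer called members in a list also moved with single libraries. Between 46.9% and 51.2% of called genes were higher under every setting, and no setting moved the median of all genes by 0.1. Every setting used size factors set by the median ratio between libraries, which hold that median near 0. These values therefore could not test whether the balance of higher and lower genes depends on the scaling. No paired analysis applied, because the groups compared hold different rats. Depth limits genes with few reads, such as Ccna2 and Egr3.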
